A study of Mus musculus with 4 samples.

Results

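The transcripts of 9 cytokine receptors, Tek, Csf1r, Csf3r, Csf2rb, Il18r1, Il1r1, Il6ra, Ifngr1 and Il6st, were followed through single stem and progenitor cells of mouse bone marrow with and without Sin3B. They were taken by gene symbol and are 9 of the 32285 genes counted. The list was chosen with earlier results of these data known. LSK cells (Lineage- Sca-1+ cKit+, the marrow fraction in which blood stem cells and early multipotent progenitors are found) came from C57BL/6 mice that were Sin3B F/F without Cre (wild type, Sin3B+/+) or Sin3B F/F with Vav1-iCre (knockout, Sin3B H-/-). Vav1-iCre deletes the floxed gene throughout the hematopoietic system from fetal life on, so the knockout is not limited to stem cells. The age of these mice was not given in the sources used here. Cells of 2 mice were pooled per genotype and tagged with an anti-CD45 antibody carrying the B0096 hashtag (wild type) or an anti-CD45.2 antibody carrying the B0157 hashtag (knockout), and both pools were run in a single 10x library. One library was made at homeostasis and another on day 9 after a single intraperitoneal dose of 100 mg/kg 5-fluorouracil (5-FU), which kills cycling progenitors. Condition and library cannot be told apart, so levels are compared between genotypes and cell types inside a library, and not between libraries.

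Cytokine receptors let a progenitor sense the factors that set its survival, division and lineage. Most of the 9 work as pairs. IL-1 binds IL1R1 and then recruits IL1RAP, IL-18 binds IL18R1 and recruits IL18RAP, IL-6 binds IL6RA and then IL6ST (gp130), which many related cytokines share, and interferon gamma binds IFNGR1 with IFNGR2. CSF2RB is the shared beta chain of the GM-CSF, IL-3 and IL-5 receptors, CSF3R is the G-CSF receptor and CSF1R the receptor kinase for M-CSF. TEK, also called Tie2, is the angiopoietin receptor kinase of endothelium and of quiescent stem cells. Inflammatory receptors such as IL1R1 are known to push stem cells toward myeloid output.

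After removal of cells with both tags or neither, of outlying cells and of cells with lineage transcripts, the wild-type and knockout pools kept 10184 and 4108 cells in the homeostasis library and 4855 and 3307 in the 5-FU library. The median cell held 6967 UMIs (unique transcript molecules) in wild type and 6607 in knockout at homeostasis, and 9306 and 10935 after 5-FU. Kit, the receptor that defines the gate, stood at 375 CPM at homeostasis and 213 after 5-FU (CPM is a gene's UMIs over all UMIs summed in the pool, scaled to the usual common total). Sin3b fell from 81.7 to 23.3 CPM at homeostasis (log2 ratio of knockout over wild type -1.81) and from 113 to 15.1 CPM after 5-FU (-2.90), so each tag matched its genotype, with transcript remaining in the knockout pools. The libraries shared 76 cell barcodes out of 23931 and 12753. With 1 pool per genotype in a library there was no replicate check within it, and the 95% intervals given with levels and ratios (exact Poisson and binomial) cover counting error only. In such summed cells, fewer cells that use a gene and less RNA per cell cannot be told apart.

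Clusters were built without the receptors and named only where the markers of a cell type were raised. At homeostasis clusters 1 and 10 were LT-HSC-like (long-term stem cell markers, 6 and 9 of 9 raised), cluster 5 lymphoid-primed-like (7 of 8) and cluster 7 megakaryocyte-erythroid-like (8 of 9). After 5-FU cluster 5 was LT-HSC-like (8 of 9), cluster 1 lymphoid-primed-like (6 of 8), cluster 3 neutrophil-primed-like (5 of 7) and clusters 4 and 8 megakaryocyte-erythroid-like (9 and 8 of 9). The lymphoid-primed-like cluster after 5-FU was led by Irf8, a monocyte and dendritic cell factor, and also had 5 of 8 B-lineage markers raised, and cluster 8 there was led by histone genes. The lymphoid-primed-like clusters also had monocyte and dendritic cell markers raised, 4 of 7 at homeostasis and 3 of 7 after 5-FU. Of the megakaryocyte-erythroid-like clusters, homeostasis cluster 7 and 5-FU clusters 4 and 8 also had 3, 4 and 2 of 9 LT-HSC markers raised. In 5-FU cluster 8, 4 of 7 neutrophil-primed markers were raised too. The other clusters stayed unnamed, because too few markers of a list were raised or their leading genes did not favour it. They include 5-FU clusters 9 (5 of 8 lymphoid-primed markers raised) and 6 (4 of 9 LT-HSC markers) and homeostasis clusters 0, 8 and 11 (4, 3 and 4 of 7 neutrophil-primed markers). Homeostasis cluster 11 was led by Ebf1 and also had 5 of 8 B-lineage markers raised. Knockout cells were more often LT-HSC-like, at 23.0% against 10.6% in cluster 10 at homeostasis, and less often lymphoid-primed-like, at 6.60% against 12.5%. The genotype differences of the receptors are therefore given for all kept cells and inside cell types, and those of neighbouring, partner and pathway genes over all kept cells unless stated. Levels by cell type sum both genotypes, so where a receptor differed by genotype they also depend on the knockout share of the type, and for Il18r1 and Il1r1 wild-type values are given too.

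Tek was highest in 1 of the LT-HSC-like clusters and in megakaryocyte-erythroid-like cells and was nearly missing from lymphoid-primed-like cells. At homeostasis it stood at 35.4 CPM (32.5 to 38.5) in cluster 10, 34.6 (30.5 to 39.1) in the megakaryocyte-erythroid-like cluster and 2.77 (1.88 to 3.93) in the lymphoid-primed-like cluster. The former pair overlapped within counting error, and the lymphoid-primed-like level was 12.8-fold below the highest. LT-HSC-like cluster 1 held less Tek than cluster 10, at 18.8 CPM in wild type and 23.4 in knockout, near unnamed cluster 8 at 17.8 and 25.4. After 5-FU Tek was 20.8 CPM (18.5 to 23.3) in megakaryocyte-erythroid-like cluster 4, 17.7 (15.7 to 19.8) in LT-HSC-like cells, 4.06 in neutrophil-primed-like cells and 3.45 in lymphoid-primed-like cells. Summed markers of endothelium, where Tek is also used, amounted to 7.49 to 15.2 CPM over 6 genes in the 4 pools, with none of them at 0. In LT-HSC-like cells they were 17.6 CPM in wild type and 20.5 in knockout at homeostasis and 18.5 and 40.4 after 5-FU, where 1 was at 0 in the knockout, and their part in the Tek level was not tested.

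The colony-stimulating factor receptors did not share a pattern. Csf1r was the sparsest of the 9 and had its highest level in lymphoid-primed-like cells, at 9.91 CPM (8.15 to 11.9) at homeostasis and 8.35 (6.57 to 10.5) after 5-FU, where 111 of its 334 and 75 of its 171 UMIs were found. In LT-HSC-like cells it stood at 0.861 (0.533 to 1.32) and 0.351 (0.129 to 0.764). With each cell thinned to 4000 UMIs, 3.36% of lymphoid-primed-like cells held a Csf1r UMI at homeostasis against 0.297% of LT-HSC-like cells (6.67% and 0.525% before thinning). Homeostasis barcodes of 10 to 100 UMIs, which hold free RNA, carried Csf1r at 32.4 CPM (24.0 to 42.7), above its level in kept cells. The same barcodes also held Csf2rb (40.8 against 18.9 CPM), Ifngr1 (84.1 against 65.3) and Il6st (49.2 against 23.3) above their levels in kept cells. Il6ra stood at 31.7 CPM in them (23.5 to 41.9), an interval that took in its 27.1 CPM in kept cells. The part of free RNA in the levels of these receptors across cell types was not tested. Csf3r was among the most abundant of the 9. At homeostasis it was highest in unnamed cluster 6 (led by Cd244a, Slc16a11 and Ccl9) at 126 CPM (119 to 132), followed by cluster 2 at 107, lymphoid-primed-like cells at 101 (94.9 to 107), LT-HSC-like cells at 66.8 (63.6 to 70.2) and megakaryocyte-erythroid-like cells at 41.1 (36.6 to 46.0). The lymphoid-primed-like interval took in the value of cluster 2, and the LT-HSC-like and megakaryocyte-erythroid-like intervals met neither each other nor those of the higher groups just named. After 5-FU the types named in both libraries kept that order, at 76.9 in lymphoid-primed-like, 57.1 in neutrophil-primed-like, 46.2 in LT-HSC-like and 18.0 CPM in megakaryocyte-erythroid-like cells, down to 11.2 (9.55 to 13.1) in cluster 4.

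Csf2rb ran from 12.0 to 28.6 CPM over the 13 clusters at homeostasis, but both extremes were small clusters with overlapping intervals. Among clusters with more counts it was highest in unnamed cluster 6 at 28.3 CPM (25.5 to 31.5), above LT-HSC-like cells at 13.6 (12.2 to 15.2) and megakaryocyte-erythroid-like cells at 12.9 (10.5 to 15.8), with no overlap. After 5-FU it was highest in neutrophil-primed-like cells at 59.3 CPM (54.7 to 64.2), next to unnamed cluster 0 at 56.0, and lowest in unnamed cluster 6, led by class II genes, at 17.7 (15.4 to 20.2). Megakaryocyte-erythroid-like cells at 41.1 (38.8 to 43.5) lay above LT-HSC-like cells at 33.0 (30.3 to 35.8). Csf2rb has a near copy, Csf2rb2, 20030 bases away on chromosome 15, and reads shared by both could be lost or split in counting.

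Il6ra and, at homeostasis, Il1r1 and Il6st were led by the lymphoid-primed-like cells. Il1r1 reached 187 CPM (179 to 195) there at homeostasis, against 37.3 (34.9 to 39.8) in LT-HSC-like and 20.5 (17.4 to 24.0) in megakaryocyte-erythroid-like cells, a 9.12-fold range over clusters. In wild type alone these levels were 194 (185 to 203), 45.6 (42.1 to 49.3) and 26.3 (22.1 to 31.1), in the same order and without overlap. After thinning, 48.9% of lymphoid-primed-like cells held an Il1r1 UMI against 12.0% of LT-HSC-like cells. After 5-FU the lymphoid-primed-like level was 63.0 (57.9 to 68.4), overlapping with the small unnamed cluster 9 at 83.8 (65.2 to 106), and megakaryocyte-erythroid-like cluster 4 was lowest at 3.18 (2.33 to 4.25). Il6ra followed the same order, with 50.5 and 52.1 CPM in lymphoid-primed-like cells at homeostasis and after 5-FU, 21.7 and 21.6 in LT-HSC-like cells and 9.43 and 8.13 in megakaryocyte-erythroid-like cells. Il6st, the chain that IL6RA needs to signal, was spread more evenly, at 33.8 CPM (30.5 to 37.4) in lymphoid-primed-like, 26.7 (24.7 to 28.8) in LT-HSC-like and 15.4 (12.7 to 18.5) in megakaryocyte-erythroid-like cells at homeostasis. After 5-FU Il6st was higher in LT-HSC-like cells, at 23.9 (21.6 to 26.3), than in lymphoid-primed-like cells, at 13.5 (11.2 to 16.1).

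Il18r1 was highest in dividing and unnamed progenitors, at 64.8 CPM (56.3 to 74.3) in cluster 12 (led by Ccnb1, Ube2c and Cenpf) and 54.0 in cluster 2 at homeostasis. Lymphoid-primed-like cells held 53.7 (49.5 to 58.2), LT-HSC-like cells 21.2 (19.4 to 23.1) and megakaryocyte-erythroid-like cells 19.3 (16.2 to 22.7), the last pair overlapping. In wild type alone the levels were 57.4 (52.6 to 62.5), 31.4 (28.5 to 34.5) and 24.0 (19.96 to 28.6), where the last intervals only just met. After 5-FU its levels ran from 21.9 (17.5 to 27.0) in cluster 0, led by Ccnb2, to 2.35 (1.63 to 3.29) in megakaryocyte-erythroid-like cluster 4, with LT-HSC-like cells at 6.02 (9.21 in wild type). Ifngr1 was the most even receptor, with a 1.69-fold range over clusters at homeostasis and 1.54-fold after 5-FU, where LT-HSC-like cells at 94.5 CPM (89.96 to 99.2) and class II-led cluster 6 at 94.2 were highest. The highest cluster stayed the same in 14 of the 18 receptor and library pairs when cells were thinned to equal depth, the exceptions being Csf2rb and Ifngr1 at homeostasis and Ifngr1 and Il6st after 5-FU. It stayed the same in 12 of 18 at coarser clustering, where the top clusters of Il18r1 (both libraries), Csf3r, Il1r1, Ifngr1 and Il6st (5-FU) changed.

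**Figure D1:**
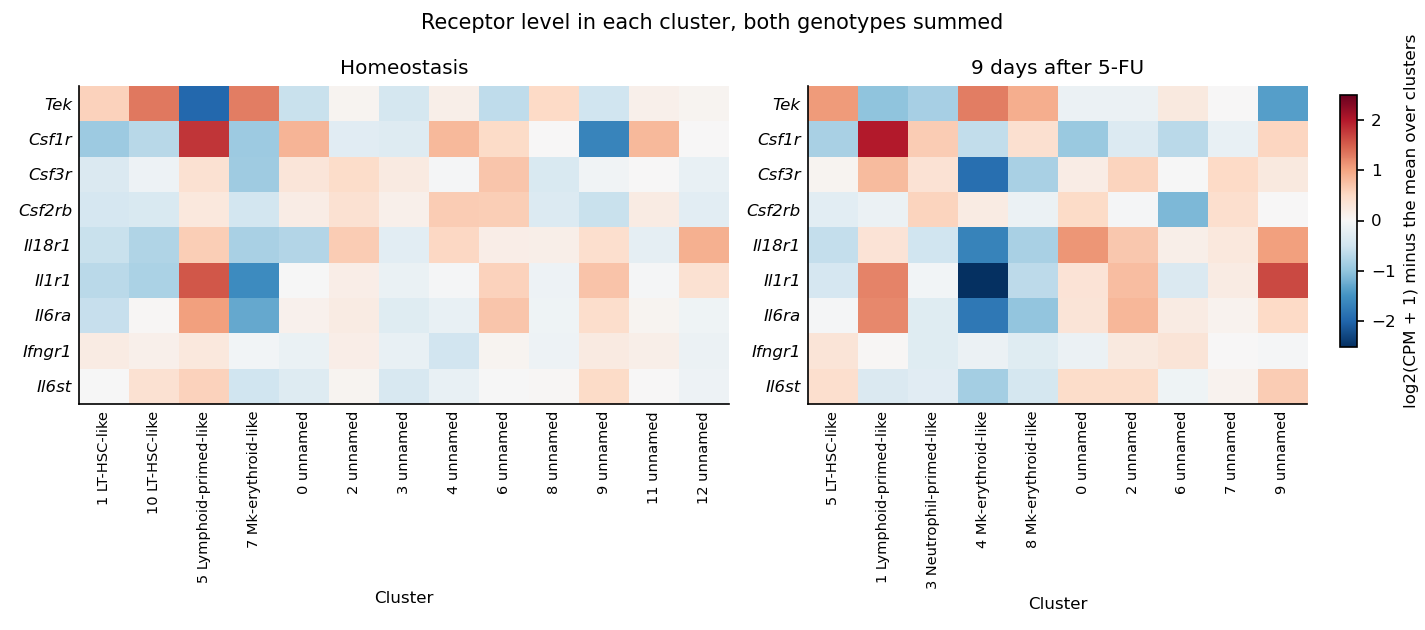
Level of each receptor (rows) in each cluster (columns) of the homeostasis library (13 clusters) and the 5-FU library (10 clusters), as log2(CPM + 1) minus the receptor's mean over the clusters of that library, with both genotypes summed. Tek tends to be high where Il1r1 is low. Its highest columns are LT-HSC-like cluster 10 and megakaryocyte-erythroid-like cluster 7 at homeostasis, and megakaryocyte-erythroid-like cluster 4 and LT-HSC-like cluster 5 after 5-FU. Il6ra is lowest in megakaryocyte-erythroid-like clusters 7 and 4, while Csf1r and Il6ra peak in the lymphoid-primed-like column. Il1r1 peaks there at homeostasis but in unnamed cluster 9 after 5-FU, and Ifngr1 hardly varies.

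As a description over the 23 clusters, which share libraries and depth, the profiles of Il1r1 and Il6ra ran together (Pearson r = 0.90) and those of Tek and Il1r1 ran opposite (-0.85). The genes most like Il1r1 were Satb1, a lymphoid chromatin factor that also served as a naming marker, and Flt3, the FLT3 ligand receptor, both at 0.96. Those most like Tek were Rab27b (0.94), a vesicle transport GTPase, Nt5c3 (0.94) and Aldh1a1 (0.93), a retinaldehyde dehydrogenase. Il18r1 was most like Ly9 (0.90), Tes (0.88) and its own partner chain Il18rap (0.88). Csf1r was most like Irf8 (0.90), Csf3r like Plppr3 (0.93), Il6ra like Xpc (0.94), Ifngr1 like Zbtb10 (0.89), Il6st like Itpkb (0.88) and Csf2rb, the least well matched, like Pum3 (0.72). Csf1r had under 500 UMIs in each library, so its likeness rests on few counts.

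Among the 9 receptors the pools differed most at Il18r1 and Il1r1, which lie on chromosome 1 in the cluster of IL-1 family receptor genes. Il18r1 (ENSMUSG00000026070) spans chr1:40465552-40500854 on the plus strand of GRCm38, and Il1r1 (ENSMUSG00000026072) chr1:40225080-40317257 on the same strand. Il1rl1 ends 136 bases before Il18r1 starts, so the stretch between the genes is short. It is shown with the 250 bases before Il1r1 because these are the promoter-proximal sequences of the receptors that changed (RefSeq, GRCm38.p6, plus strand, up to the base before the annotated start), with capitals marking a match to the cell cycle homology region letters TTTGAA, the element that the DREAM complex, a known partner of SIN3B, recognizes.
Il18r1, chr1:40465416-40465551: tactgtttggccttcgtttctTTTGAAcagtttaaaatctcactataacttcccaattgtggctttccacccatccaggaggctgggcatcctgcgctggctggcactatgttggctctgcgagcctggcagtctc
Il1r1, chr1:40224830-40225079: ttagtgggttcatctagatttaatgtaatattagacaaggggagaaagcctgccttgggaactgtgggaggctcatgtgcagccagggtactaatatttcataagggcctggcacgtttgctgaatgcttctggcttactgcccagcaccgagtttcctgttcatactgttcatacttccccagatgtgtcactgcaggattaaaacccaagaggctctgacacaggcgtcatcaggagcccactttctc
The start used is the first of 3 annotated for Il18r1 and of 2 for Il1r1, and which of them these cells use was not tested. The Il18r1 match lies 115 bases before that start. On either strand, TTTGAA occurs in 8.15% of 32851 promoters over a window of 136 bases and in 15.99% over 250, so a match by itself is common. Of the 7 receptors with a promoter entry, only Il18r1 held TTTGAA within 250 bases, the GATA letters AGATAA were found for 1 (Il6ra; 9.99% of all promoters) and the ETS letters GAGGAA for 3 (Csf3r, Il18r1 and Il6ra; 23.3%), for Il18r1 outside the stretch shown. A receptor was counted if any of its annotated starts had a match, while the shares are per promoter entry. None of the 3 motifs holds another, and the Il1r1 window shown held none of them.

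Over all kept cells at homeostasis Il18r1 fell from 41.7 CPM in the wild-type pool (3457 UMIs) to 17.5 in the knockout pool (559 UMIs), a log2 ratio of -1.25 (-1.38 to -1.12). After 5-FU it fell from 12.6 (660 UMIs) to 3.07 CPM (134 UMIs), a log2 ratio of -2.03 (-2.31 to -1.76). Il1r1 fell from 79.7 to 48.3 CPM at homeostasis (-0.72, -0.80 to -0.64) and from 30.6 to 16.4 after 5-FU (-0.90, -1.03 to -0.77). Tek moved the other way, from 14.8 to 23.1 CPM at homeostasis (0.65, 0.51 to 0.78) and from 11.2 to 13.2 after 5-FU (0.24). Past 1.5-fold, 2 of the 9 receptors were lower and 1 higher at homeostasis, beside 5.08% and 5.48% of all 15509 genes with at least 50 UMIs, and 2 were lower and 0 higher after 5-FU, beside 4.83% and 3.66% of 13510 genes. The median log2 ratio of the 9 was -0.06 at homeostasis and -0.41 after 5-FU, against 0.01 and -0.02 over all genes.

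**Figure D2:**
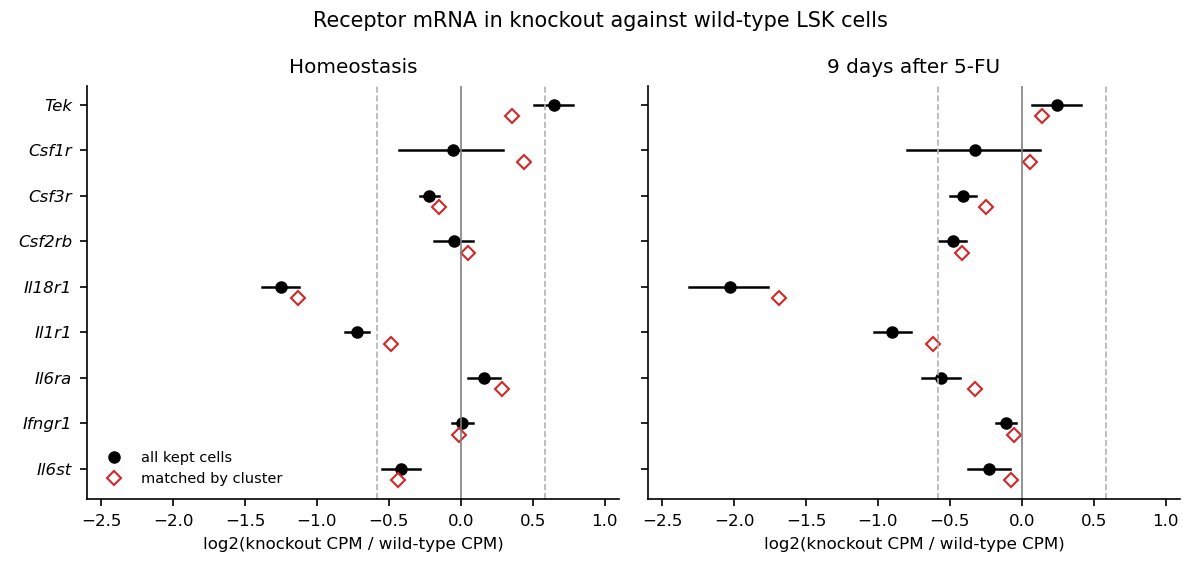
Log2 ratio of knockout over wild type for each receptor over all kept cells, at homeostasis and after 5-FU, as dots with 95% counting intervals; open red diamonds give the ratio matched by cluster and dashed lines mark 1.5-fold. Il18r1 lies farthest below 0 in both libraries and Il1r1 is next, while Tek is past the upper line at homeostasis over all kept cells but not when matched by cluster.

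Because the genotypes differed in cell type makeup, the ratios were also averaged inside clusters. Matched that way Il18r1 stood at -1.13 at homeostasis and -1.69 after 5-FU, and Il1r1 at -0.49 and -0.62. Il18r1 thus remained past 1.5-fold in both libraries and Il1r1 after 5-FU, while at homeostasis the matched Il1r1 value was below 0 but not past the line. The same held for the homeostasis Il1r1 ratio with a mixture model of the tags (-0.56) and with a tag needing 80% of hashtag UMIs (-0.57). Summed lymphoid-primed markers, which move with Il1r1 across cell types, were 493 CPM in wild type and 312 in knockout at homeostasis and 182 and 100.1 after 5-FU over 8 genes, of which 1 was at 0 in the homeostasis knockout pool. Summed T and NK markers, cells in which Il18r1 is also used, were 106 and 71.8 CPM at homeostasis and 174 and 109 after 5-FU over 5 genes, of which at most 1 was at 0 in a pool, and the part of either list in the result was not tested.

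In LT-HSC-like cells Il18r1 fell from 31.4 to 8.43 CPM at homeostasis (427 and 91 UMIs, log2 ratio -1.89, -2.24 to -1.57) and from 9.21 to 2.29 after 5-FU (85 and 18 UMIs, -1.98, -2.83 to -1.26). The share of LT-HSC-like cells with an Il18r1 UMI, after thinning to 4000 UMIs, was 10.2% (8.84 to 11.6) in wild type and 3.31% (2.47 to 4.35) in knockout at homeostasis, and 2.37% and 0.95% after 5-FU. Before thinning these shares were 15.6% and 4.59%, and 7.27% and 2.41%. At homeostasis the share of positive cells was thus lower at equal depth as well as the summed level, while after 5-FU the thinned intervals overlapped (1.48 to 3.6 against 0.383 to 1.95). No cell type in the gate lacked Il18r1, so a background share could not be set, and the knockout level at homeostasis lay below the 26.5 CPM (19.0 to 36.0) of barcodes with 10 to 100 UMIs. Summed T and NK markers in LT-HSC-like cells were 33.8 CPM in wild type and 18.8 in knockout at homeostasis and 73.1 and 29.99 after 5-FU, with at most 2 of 5 at 0 in a pool, and summed lymphoid-primed markers 171 and 131, and 106 and 68.5. The part of these lists in the Il18r1 and Il1r1 values was not tested.

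The fall of Il18r1 was present in every cluster with enough counts. It was past 1.5-fold in 10 of 10 homeostasis clusters with at least 50 UMIs, with log2 ratios from -1.88 to -0.62, and in 7 of 7 after 5-FU, from -2.41 to -0.95. The smallest change in each library was in the lymphoid-primed-like cells, from 57.4 to 37.0 CPM at homeostasis and from 14.8 to 7.54 after 5-FU. Megakaryocyte-erythroid-like cells went from 24.0 to 8.15 CPM at homeostasis (-1.52) and from 6.49 to 1.30 after 5-FU (-2.29), and neutrophil-primed-like cells after 5-FU had a ratio of -2.06. Whether the cell types differed in the size of the fall was not tested.

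Il1r1 in LT-HSC-like cells fell from 45.6 to 26.8 CPM at homeostasis (-0.77, -0.98 to -0.57) and from 26.2 to 10.9 after 5-FU (-1.26, -1.64 to -0.90). The share of LT-HSC-like cells with an Il1r1 UMI at 4000 UMIs was 14.9% (13.3 to 16.6) in wild type and 8.42% (7.06 to 9.93) in knockout at homeostasis, and 9.04% (7.23 to 11.1) and 4.21% (2.88 to 5.92) after 5-FU, with no overlap in either library (21.5% and 12.6%, 19.4% and 8.96% before thinning). No cell type lacked Il1r1 to set a background share, and barcodes of 10 to 100 UMIs held it at 50.5 CPM (39.9 to 63.0) at homeostasis, above both of these LT-HSC-like levels. Over clusters the ratio was below 0 in 10 of 10 at homeostasis and in 7 of 8 after 5-FU, past 1.5-fold in 4 of each. Lymphoid-primed-like cells, which held the most Il1r1 among the named types, went from 194 to 153 CPM at homeostasis (-0.34, -0.52 to -0.17) and from 62.7 to 63.8 after 5-FU (0.03, -0.24 to 0.28). Megakaryocyte-erythroid-like cells at homeostasis went from 26.3 to 6.79 CPM on 137 and 15 UMIs (-1.91, -2.83 to -1.18).

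**Figure D3:**
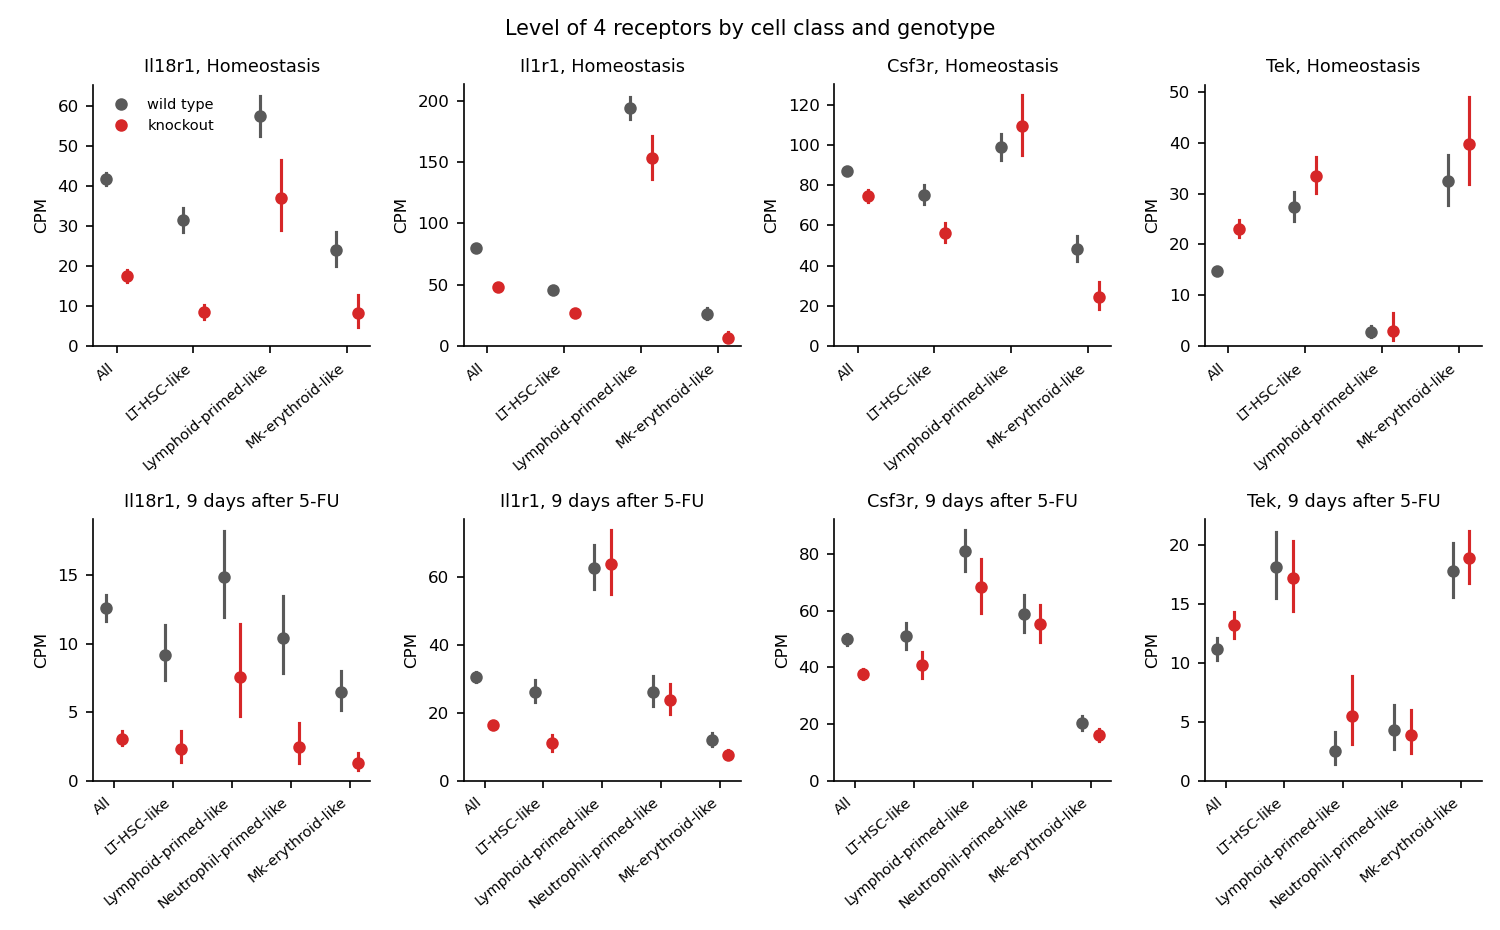
Levels in CPM of Il18r1, Il1r1, Csf3r and Tek in each named cell type of both libraries, grey for the wild-type pool and red for the knockout pool, with exact 95% Poisson intervals. The red Il18r1 values are below the grey ones in every cell type shown, Il1r1 is lower in LT-HSC-like cells but not in the lymphoid-primed-like cells after 5-FU, and Tek is near 0 in lymphoid-primed-like cells of both genotypes.

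Within cell types, 2 of the 8 receptors with at least 50 UMIs in LT-HSC-like cells were lower past 1.5-fold in each library, Il18r1 and Il1r1, beside 4.25% of 12715 genes at homeostasis and 3.42% of 11160 after 5-FU. Il6ra after 5-FU, at -0.58, lay just inside the line and was past it in 5 of 10 alternatives. None of the 8 was higher past that line, beside 2.93% and 3.27%, and Csf1r had too few counts (9 and 12 UMIs at homeostasis, 5 and 1 after 5-FU). In lymphoid-primed-like cells 3 of 8 were lower at homeostasis (Il6st, Csf2rb and Il18r1; 7.31% of genes) and 1 of 8 after 5-FU (Il18r1; 4.48%), and 1 of 8 was higher in each library (Csf1r; 4.06% of genes at homeostasis and 2.27% after 5-FU). In megakaryocyte-erythroid-like cells 3 of 8 were lower at homeostasis (Il1r1, Il18r1 and Csf3r; 4.88%) and 3 of 8 after 5-FU (Il18r1, Csf2rb and Il1r1; 3.73%). In neutrophil-primed-like cells after 5-FU 1 of 7 was lower (Il18r1; 4.34%).

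**Figure D4:**
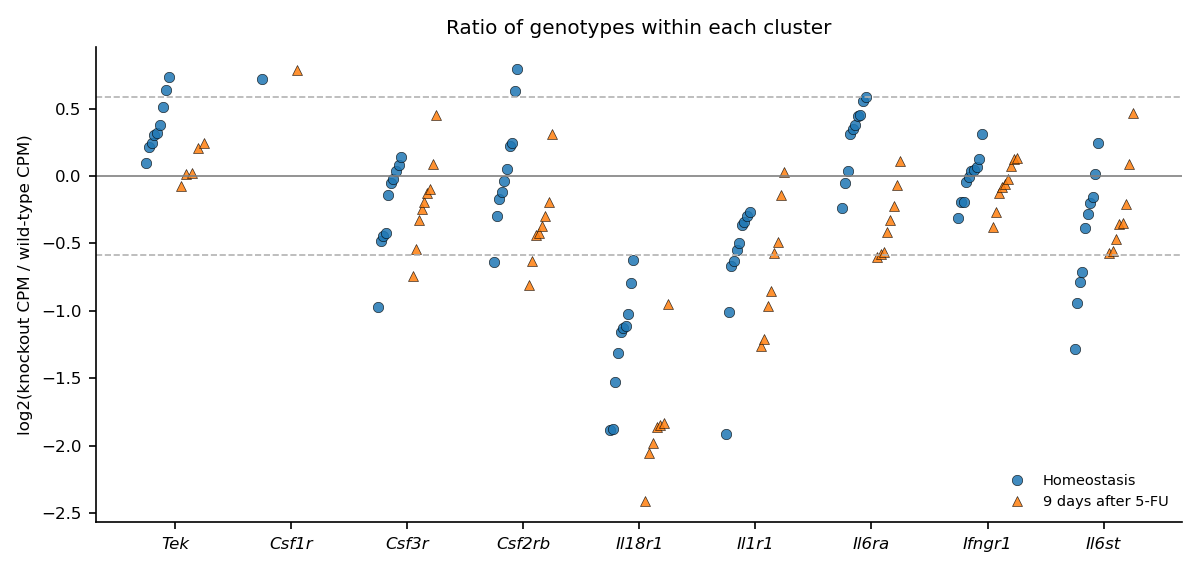
Log2 ratio of knockout over wild type for each receptor inside single clusters, circles for homeostasis and triangles for 5-FU, 1 symbol per cluster with at least 50 UMIs of that receptor. All Il18r1 symbols lie past 1.5-fold below 0, the Il1r1 symbols lie below 0 except for 1 triangle, and the Ifngr1 symbols gather around 0.

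The only comparison with 2 pools per genotype joined both libraries, with the library as a covariate (edgeR's quasi-likelihood test on 4 pools, 1 residual degree of freedom). It called Il18r1 lower in knockout, with a log2 fold change of -1.58 (SE 0.17, adjusted p = 0.00798), and Il1r1 lower at -0.80 (SE 0.09, adjusted p = 0.0088). These 2 of 9 receptors, from a list chosen with earlier results known, stand beside 0.872% of 17195 genes called lower. In LT-HSC-like pools the same test gave -1.92 for Il18r1 (SE 0.17, adjusted p = 0.000741) and -0.95 for Il1r1 (SE 0.13, adjusted p = 0.00801), 2 of 8 receptors beside 0.788% of 14218 genes. The LT-HSC-like call of Il1r1 was lost with DESeq2 (adjusted p = 0.5) and when both genotypes were clustered together (edgeR adjusted p = 0.075). For the remaining receptors over all kept cells edgeR's fold changes were 0.46 for Tek (adjusted p = 0.148), -0.30 for Csf3r (0.161), -0.31 for Il6st (0.24), -0.26 for Csf2rb (0.368), -0.19 for Il6ra (0.689), -0.18 for Csf1r (0.794) and -0.04 for Ifngr1 (0.896). For a gene, the residual of this fit is how far its genotype ratio differed between the libraries, and edgeR shares dispersion across genes. The p-values therefore do not measure the spread between mice, or between pools of the same condition.

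The stretch around Il18r1 and Il1r1 on chromosome 1 was followed over 11 genes, with predicted genes left out, to see how far the differences reached. Il1r2, the decoy receptor of IL-1 next to Il1r1, had log2 ratios of 0.00 (133 and 51 UMIs) and 0.29 (64 and 65 UMIs) at homeostasis and after 5-FU. Il1rl2, the IL-36 receptor, had -0.29 and -0.99, and Il1rl1, the IL-33 receptor, -0.54 and -0.78. Il18rap, the partner chain just beyond Il18r1, went from 54.0 to 42.8 CPM at homeostasis (-0.33, -0.42 to -0.25) and from 38.6 to 20.8 after 5-FU (-0.89, -1.003 to -0.78), with an edgeR fold change of -0.60 that missed the threshold (adjusted p = 0.0719). In LT-HSC-like cells its ratios were -0.24 (-0.44 to -0.03) and -0.80 (-1.04 to -0.55). Farther along, Slc9a2, a sodium-proton exchanger, went from 213 UMIs to 18 at homeostasis (-2.15, -2.97 to -1.49) and from 29 UMIs to 5 after 5-FU, and was called lower over all kept cells (-2.20, edgeR adjusted p = 0.0225), though not by DESeq2. In LT-HSC-like cells Slc9a2 had 27 and 10 UMIs at homeostasis (-1.06, -2.31 to -0.01) and did not pass the low-count filter of the fit. The flanking genes Map4k4 (-0.25 and -0.34) and Mfsd9 (-0.11 and -0.46) were not past 1.5-fold, and Slc9a4 and Tmem182 had at most 6 UMIs in any pool. The stretch was chosen because it holds Il18r1 and Il1r1, so apart from these, 1 of the 7 other genes tested there was called lower by edgeR (Slc9a2), beside the 0.872% of all genes called lower. With Il18r1 and Il1r1 included, 7 of the 9 genes tested there had an unadjusted edgeR p under 0.05, beside 2433 of all 17195 genes. The median log2 fold change of these 9 was -0.60, against 0.002 over all genes.

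**Figure D5:**
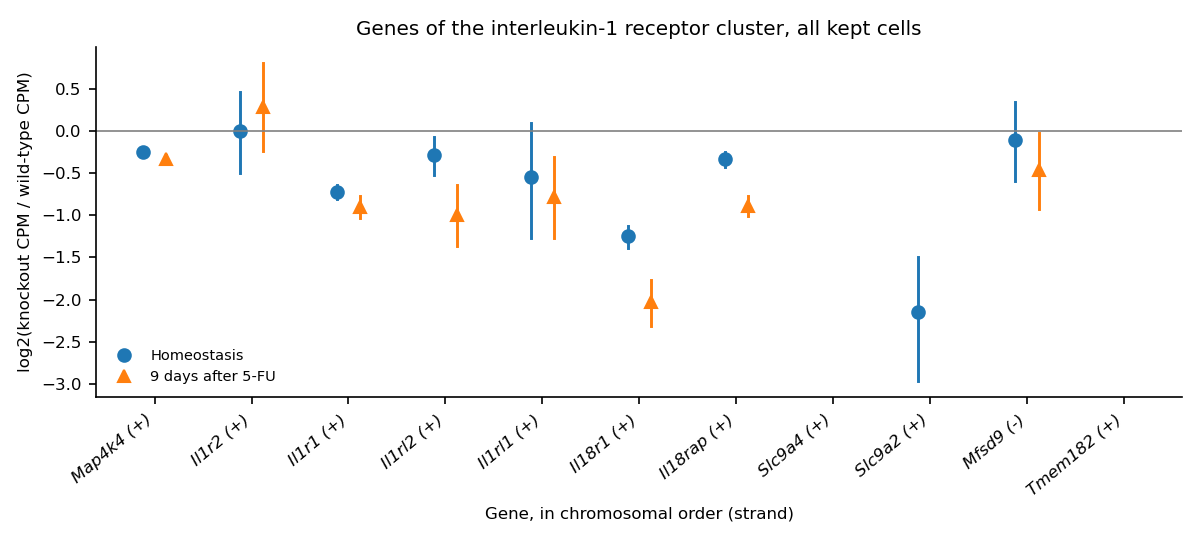
Log2 ratio of knockout over wild type over all kept cells for the genes of the IL-1 receptor stretch of mouse chromosome 1, in gene order, at homeostasis and after 5-FU, with 95% counting intervals. Il18r1 and Slc9a2 are the lowest points at homeostasis, Il1r2 is near 0, and the genes between Il1r1 and Il18rap all lie below 0.

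Tek was past 1.5-fold higher in the knockout over all kept cells at homeostasis and inside 2 of 9 clusters there. Matched by cluster its ratio was 0.35 there and 0.14 after 5-FU, and at homeostasis thinning to 4000 UMIs (0.53) and a mixture model of the tags (0.58) also left it just under the 1.5-fold line. In LT-HSC-like cells it went from 27.4 to 33.5 CPM at homeostasis (0.29, 0.08 to 0.51) and from 18.1 to 17.2 after 5-FU (-0.08, -0.42 to 0.26). Over clusters it was above 0 in 9 of 9 at homeostasis, with a median of 0.32, and in 4 of 5 after 5-FU, with a median of 0.02. Thinned shares of LT-HSC-like cells with a Tek UMI were 9.90% (8.58 to 11.4) and 10.5% (8.97 to 12.1) at homeostasis, and overlapped, beside 0.895% and 1.53% in lymphoid-primed-like cells. Summed megakaryocyte-erythroid markers, a type that holds as much Tek as stem cells, were 171 CPM in wild type and 324 in knockout at homeostasis and 550 and 907 after 5-FU, and summed LT-HSC markers 1685 and 2118, and 933 and 1013.

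Among the colony-stimulating factor receptors, Csf3r went from 86.9 to 74.7 CPM at homeostasis (-0.22, -0.29 to -0.15) and from 49.9 to 37.5 after 5-FU (-0.41). In LT-HSC-like cells it went from 75.2 to 56.3 CPM at homeostasis (-0.42, -0.57 to -0.27) and from 50.9 to 40.7 after 5-FU (-0.32, -0.53 to -0.12), so both libraries were below 0. The edgeR fold change there was -0.38 (adjusted p = 0.0685), and 3 of 9 alternatives called it. Csf2rb at homeostasis did not differ beyond counting error over all kept cells, at 19.1 and 18.5 CPM (-0.05, -0.19 to 0.09), while inside clusters it was past 1.5-fold lower in 1 of 10 (lymphoid-primed-like) and higher in 2 (unnamed cluster 3 at 0.63, 0.15 to 1.09, and cluster 11 at 0.80, 0.10 to 1.41). After 5-FU it went from 46.4 to 33.3 (-0.48). That 5-FU difference was largest in megakaryocyte-erythroid-like cells among the named types, from 52.4 to 31.4 CPM (-0.74, -0.91 to -0.57). Csf1r stood at 2.94 and 2.82 CPM at homeostasis over all kept cells, while in lymphoid-primed-like cells it was higher in the knockout, 8.91 and 14.5 CPM at homeostasis (82 and 29 UMIs, 0.72, 0.04 to 1.33) and 6.76 and 11.7 after 5-FU (41 and 34 UMIs, 0.79, 0.09 to 1.48). Summed macrophage markers were 2.57 to 7.24 CPM over 5 genes in the 4 pools, with none at 0. Summed monocyte and dendritic markers were 60.2 in wild type and 54.1 in knockout at homeostasis and 48.1 and 30.6 after 5-FU over 7 genes, none at 0, and the part of either list in the Csf1r values was not tested.

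Il6ra was the receptor whose counting intervals lay on opposite sides of 0 in the libraries. At homeostasis it went from 26.3 to 29.3 CPM (0.16, 0.05 to 0.27) and after 5-FU from 25.03 to 16.9 (-0.56). In LT-HSC-like cells the homeostasis levels were 21.9 and 21.5 CPM (-0.03, -0.28 to 0.22), and the 5-FU levels 25.5 and 17.0 (-0.58, -0.90 to -0.27). Its signaling chain Il6st went from 25.04 to 18.8 CPM at homeostasis (-0.41, -0.55 to -0.28), below 0 in 8 of 10 clusters, with the lowest ratio in unnamed cluster 0, led by Ung and E2f1 (19.9 and 7.99 CPM, -1.28, -2.13 to -0.60). Among the named types it was lowest in lymphoid-primed-like cells, at 36.6 and 21.0 CPM (-0.79, -1.30 to -0.34). After 5-FU the Il6st ratio was -0.23 over all kept cells and 0.09 (-0.20 to 0.38) in LT-HSC-like cells. Ifngr1 differed least, at 65.2 and 65.7 CPM at homeostasis (0.01, -0.06 to 0.08) and -0.11 after 5-FU, with cluster medians of 0.01 and -0.06.

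Of the partner chains, Il1rap, Tie1, Ifngr2, Il3ra, Csf2ra and Csf2rb2 differed by less than 1.5-fold over all kept cells in both libraries. Il1rap, without which IL1R1 does not signal, stood at 33.3 CPM in both pools at homeostasis and at 7.28 and 6.76 after 5-FU. Tie1, the kinase that pairs with TEK, went from 33.6 to 40.2 CPM (0.26) and from 32.2 to 32.1 (-0.01). Ifngr2 was 16.8 and 19.2, then 26.5 and 23.3 CPM, and the alpha chains that use CSF2RB were 11.5 and 12.9, then 25.9 and 26.5 for Il3ra and 27.2 and 23.5, then 27.0 and 29.5 for Csf2ra. Csf2rb2 was 2.47 and 3.23, then 10.3 and 8.19 CPM. Il5ra, the IL-5 receptor alpha chain, was rare but rose from 1.098 to 3.45 CPM (91 and 110 UMIs) at homeostasis and from 0.324 to 2.02 (17 and 88 UMIs) after 5-FU. It was the 1 call among the 15 partner chains and soluble inhibitors tested over all kept cells (edgeR log2 fold change 2.04, adjusted p = 0.0219), beside 0.989% of genes called higher, and DESeq2 called none of the list. In LT-HSC-like cells Il5ra had 10 and 20 UMIs at homeostasis and 0 and 7 after 5-FU, too few to test. None of 12 chains tested there was called by edgeR or DESeq2, and 3 had an unadjusted edgeR p under 0.05, beside 2046 of all 14218 genes.

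Downstream, 2 of 12 response genes were called higher over all kept cells, both feedback inhibitors of STAT5 signaling, beside 0.989% of all genes, and DESeq2 called 1. Socs2 rose from 8.39 to 22.9 CPM at homeostasis and from 19.0 to 40.8 after 5-FU (edgeR 1.28, adjusted p = 0.00395), and Cish rose from 13.3 to 29.7 and from 21.8 to 30.7 (0.83, adjusted p = 0.043). Both were also called in LT-HSC-like pools, with Pim1, a STAT5-induced kinase, lower there (-0.38, edgeR adjusted p = 0.04), 2 higher and 1 lower of 12 beside 0.928% and 0.788% of all genes. Among 26 further cytokine and growth factor receptors over all kept cells, Bmpr1a, a BMP receptor kinase, was the 1 call, beside 0.872% of genes called lower. It went from 8.15 to 3.79 CPM at homeostasis and from 1.77 to 0.757 after 5-FU (-1.15, edgeR adjusted p = 0.0297). Of the 26, 11 had an unadjusted edgeR p under 0.05, beside 2433 of all 17195 genes. In LT-HSC-like pools 23 of the 26 could be tested, with 10 at an unadjusted edgeR p under 0.05, beside 2046 of all 14218 genes. There 2 were called higher, among them Tgfbr1, a TGF-beta receptor kinase (0.62), beside 0.928% of genes. The 3 called lower, beside 0.788%, were Bmpr1a (-1.12), Flt3 (-0.62) and Il10ra (-1.06), while DESeq2 called none of the response genes or further receptors there. The median fold change of each of these lists lay between -0.09 and 0.12. Among the ligands, Angpt1, which binds TEK, was abundant at 2149 and 2486 CPM at homeostasis and 383 and 404 after 5-FU, and Il18 stood at 35.9 and 40.3, then 17.0 and 14.1 CPM. None of 10 ligands and none of 16 signal transducers tested over all kept cells was called by edgeR or DESeq2. Of them, 1 and 2 had an unadjusted edgeR p under 0.05, beside 2433 of all 17195 genes.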

How the data were processed

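Cells from 2 mice per genotype were pooled, hashed and run as 1 library at homeostasis and 1 after 5-FU. The authors deposited raw UMI counts per gene and barcode, not normalized, for 32285 genes and 2 hashtags, made with Cell Ranger (Cell Ranger 4 and cellranger-6.0.1 per the file headers). The submitters' processing notes name mm9, Seurat and DESeq2; counting options, strand use included, were not given in the sources used here. Coordinates come from GENCODE M21 (GRCm38) and promoters from RefSeq (GRCm38.p6), neither matched to that build.

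The homeostasis matrix held 6794880 barcodes unfiltered. Those with at least 2921 UMIs (10% of the 99th percentile of the 10000 largest) were taken as cells, giving 23931; the 5-FU matrix was deposited with 12753 cells. Its gene order was checked against the 5-FU feature list (correlation of log counts 0.919, at most 0.389 when shifted). Genotypes came from HTODemux in Seurat 5.3.0 (R 4.3.3; positive quantile 0.99). Cells with both tags were removed as doublets, and no caller was run for doublets within a genotype. Neither tag was called for 6283 of the 23931 cells at homeostasis and 3290 of the 12753 after 5-FU. Whether that loss fell equally on the genotypes, which carried different antibodies, was not tested. The outer 2% in depth, genes and mitochondrial share were dropped by library, as were cells with at least 2 UMIs over 9 lineage genes. Wild-type cells were clustered (scanpy 1.11.5, 2000 variable genes without the receptors, their pathway lists and 138 genes that differed by genotype, 30 components, 20 neighbours, resolution 1), and knockout cells joined the cluster of their nearest wild-type neighbours. A name needed at least 3 and most of the markers of a list raised 1.5-fold, and among the 10 leading genes more of its own markers than of another list (75% raised where none led); the naming rule was settled after clusters were seen.

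UMIs were summed per pool. Log2 ratios used 0.5 added counts, and a gene needed 50 UMIs. For pools of both libraries edgeR 4.0.16 was used (glmQLFit and glmQLFTest, TMM, filterByExpr, library as covariate, Benjamini-Hochberg over all genes). On simulated pools at these depths the test recovered 78.4% of 2-fold and 92.6% of 4-fold changes over all kept cells, and 87.5% and 96.8% in LT-HSC-like pools. The simulated counts used the dispersion estimated by this same fit, so these rates do not cover the spread between mice. Named genes were the 9 receptors, their direct partners, the IL-1 receptor stretch, pathway genes past 1.5-fold one way in both libraries, and the 3 genes most alike over clusters; Angpt1, Il18 and list genes that passed edgeR alone were added after their values were seen. The members and lists were chosen with earlier results of these data known. Alternatives were other tag calls, cell calls, filters, thinning, per-cell means, matching by cluster, naming and clustering settings, scaling and DESeq2 1.42.0; clustering both genotypes together was added after seeing the data. One gene of the lists is not reported here.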

Additional observations from a re-analysis of the deposited data

Results flagged for a closer look

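Il6ra, the IL-6 receptor alpha chain, had knockout over wild-type log2 ratios with opposite signs in the libraries over all kept cells, 0.16 at homeostasis and -0.56 after 5-FU, with counting intervals on either side of 0. The difference between the libraries was not tested, since each holds 1 pool per genotype. Matched by cluster the values were 0.29 and -0.33.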

How the results depend on the processing

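No result changed direction past a threshold. Il18r1 and Il1r1 over all kept cells were called by edgeR or DESeq2 under all 6 alternatives (adjusted p up to 0.0298 and 0.0411); in LT-HSC-like pools Il18r1 was called under 9 of 9 (adjusted p up to 0.0191) and Il1r1 under 7 of 9. The count of receptors past 1.5-fold over all kept cells at homeostasis went from 3 to 1 with the mixture model of the tags and to 1 matched by cluster; in LT-HSC-like cells after 5-FU it went from 2 to 1 with a tag needing 80% of hashtag UMIs and to 1 with no lineage filter, Il18r1 being under 50 UMIs in both. Il18r1 was also under 50 UMIs there with thinning, the 5% quality filter and both genotypes clustered together, where Il6ra was past the line, and the count was 3 with the mixture model and at resolution 0.5. Genes called over all kept cells numbered 320, against 156 with RLE scaling, 618 with no low-count filter, 199 with DESeq2 and 176 with the 80% tag. In LT-HSC-like pools 244 were called, against 138 with library size scaling, 146 with RLE, 918 with no low-count filter, 34 with DESeq2, 510 with the 80% tag, 634 with the mixture model and 80 with both genotypes clustered together. The no-filter fit tested more genes and the tag alternatives used other cells; for the rest the cause was not tested. Leaving out a pool would leave no residual degrees of freedom, so it was not run. No paired analysis was possible because the labels number no replicates of a genotype, beyond the edgeR fit itself, whose library term sets the pools of a library against each other. Csf1r reached 50 UMIs in 1 cluster of each library, and Tek after 5-FU in 5.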
